A study of Mus musculus with 8 samples.

Results

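Genes of the integrated stress response were examined in whole blood of mice under restraint stress (RST, 6 h each day) and of unrestrained control mice, taken on Day 7. There were 10 genes, encoding 2 kinases that phosphorylate the translation factor eIF2 alpha (Eif2ak1 and Eif2ak4), the transcription factors Atf4, Atf3, Atf5 and Ddit3, the ATF4-dependent genes Trib3, Sesn2 and Chac1, and Ppp1r15a, which directs the phosphatase of eIF2 alpha. They are 10 of the 18194 genes that the platform annotation ties to a probe set with a single gene name, and 20 probe sets measure them. All 8 mice were female C57BL/6J, aged 6 to 8 weeks when purchased and then acclimated before the restraint period, with no drug treatment in the labels. The 4 RST mice were held in ventilated tubes, and the 4 control mice were kept without food and water over the same hours and otherwise left alone. RNA of each mouse was hybridized to its own 1-color Affymetrix array, after amplification of the RNA, and each probe set has a log2 expression level.

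The integrated stress response is the pathway by which cells slow protein synthesis when amino acids, heme or protein folding fail. Each of its kinases senses another stress and phosphorylates eIF2 alpha, which lowers general translation while the mRNAs of ATF4 and ATF5 are translated more, so ATF4 protein can change without a change in its mRNA. ATF4 then raises the transcription of amino acid transporters, biosynthetic enzymes and feedback genes. In red cell precursors the heme-regulated kinase HRI, encoded by Eif2ak1, matches globin synthesis to heme supply.

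For none of the 10 genes was a difference between RST and control blood detected beyond the spread between mice. Only probe sets brighter than the array median in 2 or more mice of either group were tested, and 14 of the 20 probe sets, for 9 of the 10 genes, met this. The unadjusted threshold was a limma p below 0.05 together with more than a 1.5-fold difference. None of the 14 passed it, against 13.3% of all 25084 tested probe sets (2.89% higher and 10.4% lower in RST mice). No member had an unadjusted p below 0.05 at any fold, and the smallest was 0.16 in limma, 0.50 after adjustment. No probe set passed after Benjamini-Hochberg adjustment, members included (smallest adjusted p over all tested = 0.32). RST and control values overlapped for each of the 20 probe sets, while they did not overlap for 7.99% of all tested probe sets (2.23% with RST above and 5.76% with RST below). Log2 fold changes (RST minus control) of the 14 ran from −0.34 to 0.89 with a median of 0.05, against a median of −0.20 over all tested probe sets, and the RST mean was above the control mean for 8 and below it for 6, where 34.7% of all tested probe sets had a higher RST mean. These signs depended on the scale: 11 of the 14 were higher after quantile normalization (median 0.15) and 4 with the control probe sets as the scale (median −0.08). Trib3 1456225_x_at, Eif2ak4 1421389_a_at and Eif2ak1 1436006_at were tested only through the group with the higher mean, so the filter favored their signs. For 8 of the 14 the 95% interval of the difference lay within 2-fold either way. The smallest p that an exact permutation of 4 mice against 4 allows is 0.029.

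**Figure D1:**
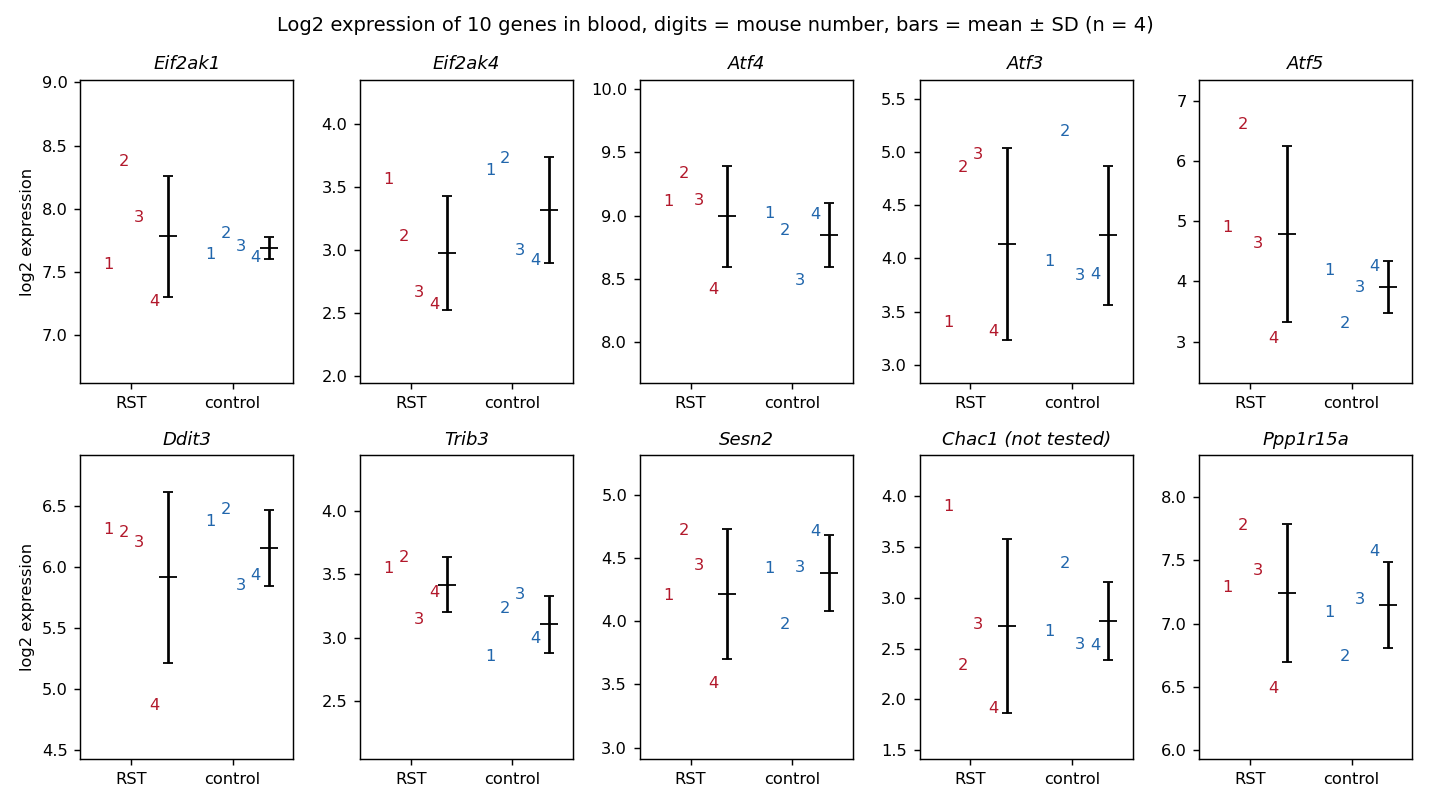
Log2 expression of the 10 genes, each at its brightest probe set, in RST mice (red, left) and control mice (blue, right), with each mouse drawn as its number and black bars giving the mean ± SD (n = 4). The groups overlap in each panel, and RST mouse 4 is the lowest of the 8 mice in 9 panels, all but that of Trib3.

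The arrays were not alike in scale. The array of RST mouse 4 had its 75th percentile at 4.50 on the log2 scale, against 5.06 to 5.19 in RST mice 1 to 3 and 5.13 to 5.37 in control mice, and for 41.6% of tested probe sets this mouse was the lowest of the 8. Hybridization controls added to each sample (18 probe sets) averaged 12.35 to 12.73 on the log2 scale in RST mice, against 11.90 and 11.93 in control mice 2 and 1 and 12.60 and 12.74 in control mice 4 and 3. The median log2 fold change of all tested probe sets was −0.02 after quantile normalization, −0.33 with the control probe sets as the scale and −0.10 without RST mouse 4. That scale was the median of all 64 control probe sets of each array, not the mean of the 18 hybridization controls. Of all probe sets past the unadjusted threshold 78.3% were lower in RST mice, against 52.9% after quantile normalization, 89.0% with the control probe sets as the scale and 53.5% without RST mouse 4. The part of the hybridization controls in these values was not tested. Reticulocyte markers (13 tested of 16 listed) averaged 10.58 to 10.96 in RST mice and 9.77 to 10.50 in control mice. Of 8 listed markers of hepatocytes and of cells of the nervous system, which blood should lack, 5 passed the filter and averaged 3.85 to 4.38 in RST mice and 3.53 to 4.34 in control mice. Among them Alb, albumin, was at 4.81 to 5.30 in RST mice and 4.14 to 6.05 in control mice, where the highest value lay above the 75th percentile of its array (5.14). None of the 5 passed the unadjusted threshold, and their part in the values of the 10 genes was not tested.

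Eif2ak1 encodes HRI, the kinase that heme holds inactive. Its brightest probe set (1421901_at) had log2 levels of 7.56, 8.37, 7.93 and 7.27 in RST mice 1 to 4, against 7.64, 7.80, 7.71 and 7.61 in control mice 1 to 4. RST mice 2 and 3 were above and RST mice 1 and 4 below all control mice, so the means lay close together while the RST values spread more widely. The log2 fold change was 0.09 (SE, the standard error, 0.28, 95% interval −0.53 to 0.72, limma adjusted p = 0.90, two-sided exact permutation p = 0.74). The SD was 0.48 in RST mice and 0.084 in control mice.
A second probe set of Eif2ak1 (1421900_at) was at 6.52, 7.18, 6.57 and 5.41 in RST mice 1 to 4 and at 6.05, 6.19, 6.26 and 6.15 in control mice 1 to 4. Here RST mice 1 to 3 were above every control mouse and RST mouse 4 was below every one. With all 8 mice the log2 fold change was 0.26 (SE 0.35, limma adjusted p = 0.75). It passed the unadjusted threshold at 0.60 without RST mouse 4 (limma adjusted p = 0.42) and 0.59 after quantile normalization (limma adjusted p = 0.33). The other 3 probe sets of the gene were dimmer, and their log2 fold changes were −0.07, −0.22 and −0.27. Of these, 1436006_at passed the filter only through control mice, where it exceeded the array median in 3 mice, against 1 RST mouse. The 5 probe sets of Eif2ak1 thus did not share a direction.

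Eif2ak4 encodes GCN2, the kinase that uncharged transfer RNA activates when amino acids are short. Its brighter probe set (1421389_a_at) was at 3.55, 3.10, 2.67 and 2.57 in RST mice 1 to 4 and at 3.63, 3.72, 2.99 and 2.92 in control mice 1 to 4. These are low values, above the array median in 1 RST mouse and 2 control mice, and the groups overlapped. The probe set was thus tested only through control mice, the group in which it was higher. The log2 fold change was −0.34 (SE 0.32, 95% interval −1.03 to 0.35, limma adjusted p = 0.62), or −0.14 relative to the median tested probe set. The second probe set (1443235_at) was below the filter in all 8 mice, at 1.66 to 1.89 in RST mice and 1.51 to 1.84 in control mice.
Both remaining eIF2 alpha kinases were tested as well. Eif2ak2, which encodes the double-stranded RNA sensor PKR, differed by 0.14 (SE 0.36) on the log2 scale and Eif2ak3, which encodes the endoplasmic reticulum kinase PERK, by −0.37 (SE 0.43), and neither passed the unadjusted threshold.

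**Figure D2:**
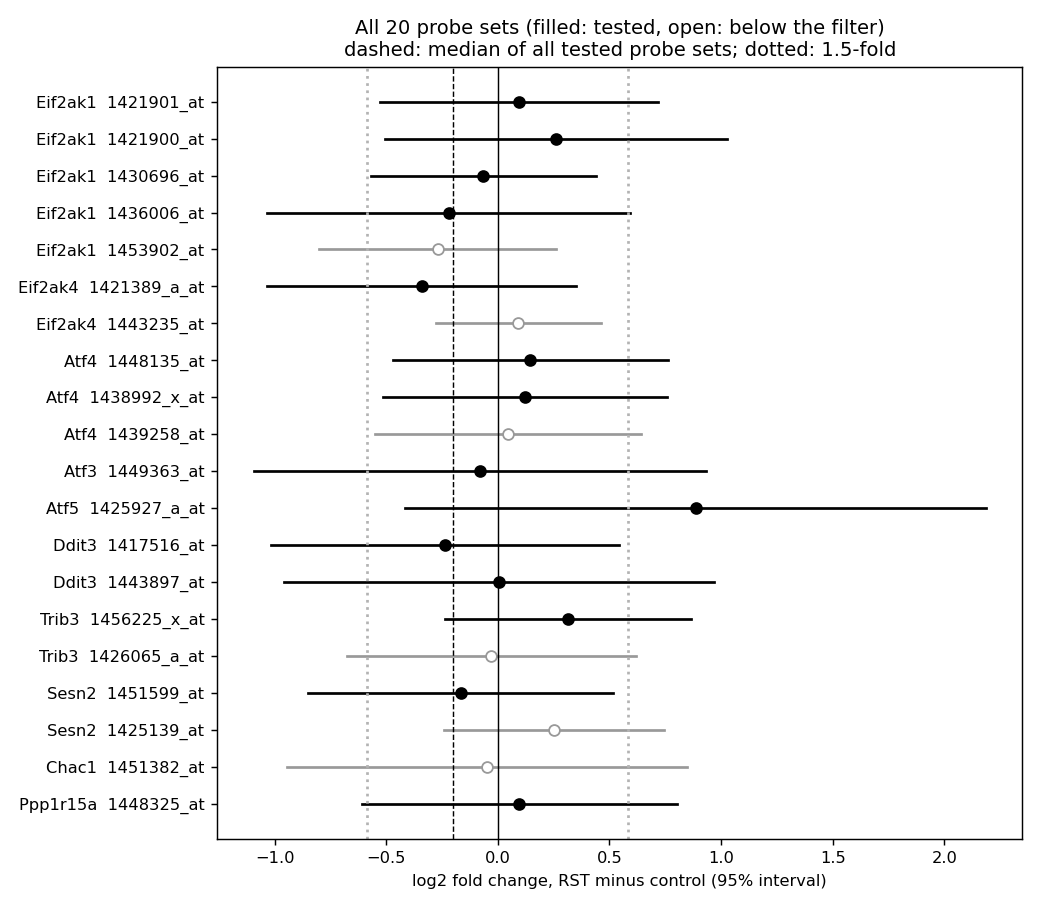
Log2 fold change (RST minus control, horizontal axis) of the 20 probe sets with its 95% interval from limma, filled for the 14 tested and open for the 6 below the filter. Every interval crosses 0, and the widest is that of Atf5, from −0.41 to 2.19.

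Atf4 is the central transcription factor of the response. Its brightest probe set (1448135_at) was at 9.11, 9.33, 9.12 and 8.41 in RST mice 1 to 4 and at 9.02, 8.88, 8.48 and 9.01 in control mice 1 to 4. RST mice 1 to 3 were above every control mouse, and RST mouse 4 was below every one. The log2 fold change was 0.15 (SE 0.28, 95% interval −0.47 to 0.76, limma adjusted p = 0.83, two-sided exact permutation p = 0.49), and without RST mouse 4 it was 0.34 (limma p = 0.20). The probe set 1438992_x_at, whose type can include probes that match other sequences, was at 0.12 (SE 0.29), and 1439258_at was below the array median in all 8 mice. The interval of the brightest probe set lay within 2-fold either way.

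Atf5, which is controlled at translation as ATF4 is, had the largest difference of the 14 tested probe sets and also the widest spread. Its probe set was at 4.89, 6.61, 4.62 and 3.04 in RST mice 1 to 4 and at 4.18, 3.29, 3.90 and 4.25 in control mice 1 to 4. RST mouse 2 was 2.36 log2 units above the highest control mouse, RST mice 1 and 3 were above every control mouse, and RST mouse 4 was below every one. The mean was 4.79 ± 1.46 in RST mice and 3.91 ± 0.44 in control mice (SD, n = 4 each), a log2 fold change of 0.89 or 1.85-fold (SE 0.59, 95% interval −0.41 to 2.19, limma adjusted p = 0.50, two-sided exact permutation p = 0.31). RST mice 2 and 4 decided this value. Leaving out RST mouse 4 gave 1.47 (unadjusted p = 0.011 and 0.35 after adjustment in limma), and leaving out RST mouse 2 gave 0.28.

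Atf3 encodes a stress-inducible factor that ATF4 can induce. Its log2 levels were 3.39, 4.86, 4.98 and 3.31 in RST mice 1 to 4, against 3.97, 5.20, 3.84 and 3.85 in control mice 1 to 4. The RST mice were split, with mice 2 and 3 high and mice 1 and 4 low, and the highest of all 8 was control mouse 2. The difference was −0.08 on the log2 scale (SE 0.46, limma adjusted p = 0.95), and without control mouse 2 it was 0.25.
Ddit3 encodes CHOP, a factor of prolonged stress that partners with C/EBP proteins. Its brightest probe set (1417516_at) was at 6.31, 6.29, 6.21 and 4.87 in RST mice 1 to 4 and at 6.37, 6.48, 5.85 and 5.93 in control mice 1 to 4. RST mice 1 to 3 lay within 0.10 log2 units of each other and inside the control range, and RST mouse 4 lay 1.34 below the lowest of them. On the log2 scale the difference was −0.24 (SE 0.36, limma adjusted p = 0.77), and 0.11 without RST mouse 4. The second Ddit3 probe set (1443897_at) was at 0.01 (SE 0.44).

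Trib3 encodes a pseudokinase that restrains ATF4 and CHOP, Sesn2 encodes a leucine sensor that restrains mTORC1, and Chac1 encodes an enzyme that degrades glutathione. Trib3 (1456225_x_at, a type of probe set that can include probes matching other sequences) was at 3.55, 3.63, 3.15 and 3.35 in RST mice 1 to 4 and at 2.85, 3.23, 3.34 and 3.00 in control mice 1 to 4. RST mice 1, 2 and 4 were above every control mouse and RST mouse 3 was inside the control range. The log2 fold change was 0.31 (SE 0.25, limma adjusted p = 0.57, two-sided exact permutation p = 0.11). This probe set exceeded the array median in 3 RST mice and in no control mouse, so it was tested only through the group in which it was higher, and the other Trib3 probe set, below the filter, was at −0.03.
Sesn2 (1451599_at) was at 4.20, 4.71, 4.44 and 3.51 in RST mice 1 to 4 and at 4.42, 3.98, 4.43 and 4.71 in control mice 1 to 4. The highest values of the groups were alike, and RST mouse 4 was below every control mouse. The log2 fold change was −0.17 (SE 0.31, 95% interval −0.85 to 0.51, limma adjusted p = 0.82). Its second probe set, below the filter, was at 0.25.
Chac1 was the 1 gene with no tested probe set. Its values were 3.90, 2.33, 2.74 and 1.91 in RST mice 1 to 4 and 2.67, 3.34, 2.55 and 2.53 in control mice 1 to 4. Only RST mouse 1 and control mouse 2 exceeded the median of their array, and the log2 fold change in a fit of all probe sets was −0.05 (SE 0.40).

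The promoters of these genes were searched for the sites through which ATF4 and related bZIP factors act. RefSeq promoters (GRCm38.p6, 250 bases before to 50 after the start site) were given for all 10 genes. The element bound by ATF4 with C/EBP proteins (TGATGNAA, either strand) was found in the promoters of 3 of the 10, Atf3, Chac1 and Trib3, and in 3.97% of all 32851 promoters. A cyclic AMP response element (TGACGTCA, which reads the same on both strands) was found in that of Ppp1r15a and in 1.79% of all promoters. None of the 10 promoters held both motifs. The matches are shown with 11 bases on each side, 5′ to 3′ on the strand of the gene, with the match in capitals, and the element of Asns, a target whose values follow, is set beside them.
Atf3: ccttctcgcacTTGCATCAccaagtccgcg
Chac1: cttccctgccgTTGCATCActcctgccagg
Trib3: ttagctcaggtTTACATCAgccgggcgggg
Asns: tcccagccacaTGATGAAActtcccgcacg
Ppp1r15a: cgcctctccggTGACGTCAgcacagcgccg
These stretches lie at chr1:191183425-191183454 (Atf3, minus strand, match beginning 110 bases before the start site), chr2:119351038-119351067 (Chac1, plus strand, 193 bases before), chr2:152344028-152344057 (Trib3, minus strand, 15 bases into the transcript), chr6:7693214-7693243 (Asns, minus strand, 23 bases before) and chr7:45526262-45526291 (Ppp1r15a, minus strand, 12 bases before). The element is read on the opposite strand in Atf3, Chac1 and Trib3. A match is a description of the letters, and the binding of ATF4 was not measured. The log2 fold changes of the 3 genes with the element were −0.08 (Atf3), −0.05 (Chac1) and 0.31 (Trib3), none past the threshold.

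Ppp1r15a encodes GADD34, which brings the phosphatase to eIF2 alpha and ends the response. It was at 7.29, 7.77, 7.42 and 6.49 in RST mice 1 to 4 and at 7.09, 6.74, 7.19 and 7.57 in control mice 1 to 4. RST mouse 2 was the highest and RST mouse 4 the lowest of the 8 mice. The difference was 0.10 on the log2 scale (SE 0.32, 95% interval −0.61 to 0.80, limma adjusted p = 0.91). Ppp1r15b, its constitutive relative, was at −0.41 (SE 0.30).

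Of the 14 tested probe sets of the 10 genes, RST mouse 4 was the lowest of the 8 for 11, against 41.6% of all tested probe sets. It lay a median of 0.93 log2 units below the mean of RST mice 1 to 3 over the 14, and 0.44 below it over all tested probe sets. The part of the lower scale of this array in these values was not tested. Without RST mouse 4, 12 of the 14 had a higher mean in RST mice, their median log2 fold change was 0.28 against −0.10 for all tested probe sets, and 41.6% of all tested probe sets had a higher mean. In that setting RST values were above all control values for 3 of the 14 (Atf5, Atf4 1448135_at and Eif2ak1 1421900_at), against 6.6% of all probe sets. Atf5 and Eif2ak1 1421900_at passed the unadjusted threshold, as did 11.2% of all probe sets, and none passed after adjustment in limma.
The larger spread between RST mice rested in part on RST mouse 4. With all 8 mice the SD of RST mice exceeded that of control mice for 12 of the 14 probe sets, against 58.1% of all tested probe sets, and the median SD was 0.53 in RST mice and 0.33 in control mice. With RST mice 1 to 3 alone, 9 of the 14 had the larger SD in RST mice, against 43.9% of all, and the median SD was 0.31 in these RST mice and 0.33 in control mice.

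**Figure D3:**
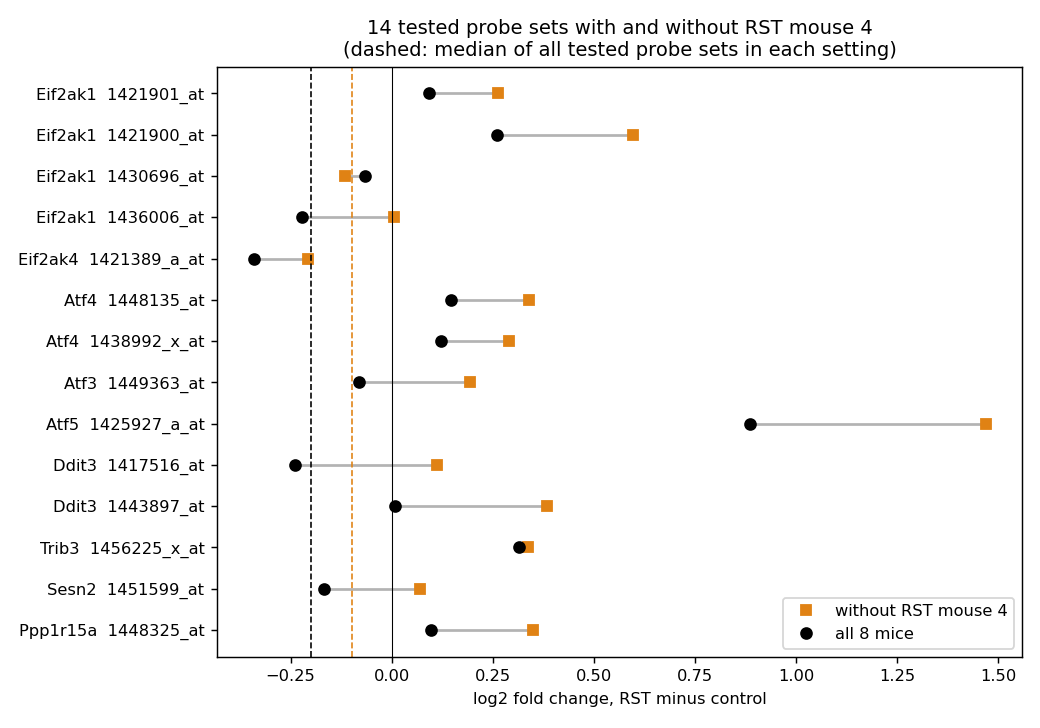
Log2 fold change (RST minus control) of the 14 tested probe sets without RST mouse 4 (orange squares) and with all 8 mice (black circles), with dashed lines at the median of all tested probe sets in each setting. The values of 13 probe sets are higher without RST mouse 4, and Atf5 is at 1.47 against 0.89.

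ATF4 target genes outside the 10 genes were examined next. This list was chosen with earlier results of these data known. Its counts and its mean are thus a description and not a test. Of 35 tested target and amino acid response genes (41 listed), 7 were higher in RST blood past the unadjusted threshold and 1 was lower, where 2.8% of 11762 genes were higher and 12.8% lower (15.6% in all), each gene at its brightest probe set. RST and control values did not overlap for 6 of the 35, 5 of them with RST above, against 8.94% of all genes. The median of the list was −0.25, against −0.24 over all genes, and 14 of the 35 had a higher RST mean, against 32.4% of all genes. The mean over the list, with each gene centered on its own mean and each array on its median gene, was 0.028 to 0.29 in RST mice and −0.22 to −0.12 in control mice. Mean and median thus differed: the centered list mean was higher in each RST mouse than in any control mouse, while the median gene of the list was close to that of all genes. Without this centering the list averaged 5.87 to 6.74 in RST mice and 6.23 to 6.38 in control mice, so the groups overlapped. None passed after adjustment in limma.
The 3 with the smallest p were the transporter Slc7a5, its heavy chain Slc3a2 and the folate enzyme Mthfd2. Slc3a2 was at 9.21, 9.42, 8.56 and 8.44 in RST mice 1 to 4 and at 7.39, 7.30, 7.69 and 7.97 in control mice 1 to 4. Each RST mouse was thus above each control mouse, RST mouse 4 included, and the log2 fold change was 1.32 (SE 0.30, limma adjusted p = 0.32). Slc7a5 (1.38) and Mthfd2 (1.78) also did not overlap between the groups. Reticulocyte markers too averaged higher in each RST mouse than in any control mouse. Their part in the values of the target genes was not tested.
The other 4 that were higher are named after their values were seen. Asns, asparagine synthetase, measured by a probe set of the type that can match other sequences, was at 6.69, 7.50, 5.39 and 4.31 in RST mice 1 to 4 and at 3.67, 2.81, 4.85 and 4.31 in control mice 1 to 4. RST mice 1 to 3 were above every control mouse and RST mouse 4 was near control mouse 4, and the difference was 2.06 log2 units (SE 0.64, limma adjusted p = 0.32). Pck2, mitochondrial phosphoenolpyruvate carboxykinase, was at 1.26, the glycine transporter Slc6a9 at 1.23 and the asparaginyl-tRNA synthetase Nars at 0.92. The 1 lower gene was the cationic amino acid transporter Slc7a1, at −0.68.
Other well-known targets did not pass the unadjusted threshold. Eif4ebp1, an inhibitor of cap-dependent translation, was at 0.64 (limma adjusted p = 0.38), Ddit4, an mTORC1 inhibitor, at −0.45, Psat1 and Phgdh, enzymes of serine synthesis, at −0.26 and −0.43, and Cebpb, a partner of ATF4, at −0.00 (Cebpg −0.51). The tRNA synthetases of the list other than Nars did not pass, with Iars at −0.93, Wars at −0.77, Tars at −0.67 and Gars at −0.58. Sars was at −0.49, Eprs at −0.48, Mars1 at −0.30 and Yars at −0.25, while Aars and Cars were at 0.09 and 0.05. The element TGATGNAA was found in the promoters of 14 of the 33 target genes that had one, Asns and Pck2 among them. The count of higher genes was 7 or 8 under each alternative normalization, filter and test and when each mouse was left out, and 5 without control mice 1 and 2.

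Other genes that act on eIF2 passed the threshold at a share near that of all genes. Of 20 tested (23 listed), 3 were lower past the unadjusted threshold and none was higher, against 12.8% and 2.8% of all genes. The RST mean was higher for 3 of the 20, against 32.4% of all genes. The median of the list was −0.43, against −0.24 over all genes. Without control mice 1 and 2 it was −0.18, against −0.13 over all tested probe sets. It was −0.30 after quantile normalization and −0.34 without RST mouse 4. The medians of all tested probe sets in these 2 settings were −0.02 and −0.10. Eif2b4 and Eif2b5, subunits of the exchange factor eIF2B that phosphorylated eIF2 inhibits, were at −1.46 (SE 0.42) and −0.996 (SE 0.45). Mcts1, which acts in reinitiation of translation, was at 5.30, 5.63, 6.00 and 4.94 in RST mice 1 to 4 and at 6.79, 6.96, 6.51 and 6.39 in control mice 1 to 4, with no overlap. None of the 3 passed after adjustment in limma. Without control mice 1 and 2 the count was 1, in a setting where the count over all tested probe sets fell as well.
The closest relatives of the 10 genes were compared next. Trib2 was at −1.11, Sesn1 at −0.82 and Sesn3 at −1.01, all past the unadjusted threshold, while Trib3 and Sesn2 themselves were at 0.31 and −0.17. The differences between relatives were not tested. Chac2, named after its values were seen, was at 0.95 and higher in each RST mouse than in any control mouse. Of 11 genes tested in this list, 3 were lower and 1 higher past the unadjusted threshold, against 12.8% and 2.8% of all genes. The count of lower ones was 0 without control mice 1 and 2. The 11 include Gadd45a and Gadd45b, which are not homologs of the members and did not pass.
Of 29 other bZIP transcription factors tested, 3 were lower past the unadjusted threshold (Creb3 −1.13, Atf6 −0.88 and Bach2 −0.88) and none higher, against 12.8% and 2.8% of all genes. Their median was −0.11, against −0.24 over all genes. After quantile normalization it was 0.0083, against −0.02 over all tested probe sets. Their lower count was 1 without control mice 1 and 2.
Genes of endoplasmic reticulum folding, which are controlled by the IRE1 and ATF6 branches of the unfolded protein response, had a lower RST mean for 22 of 25 genes. Past the unadjusted threshold 6 were lower and none was higher, against 12.8% and 2.8% of all genes. Atf6 is 1 of the 6 and is counted among the bZIP factors as well. Some other genes also stand in more than 1 list, so the counts of the lists are not separate. The median of the 25 genes was −0.52, against −0.24 over all genes. It was −0.21 after quantile normalization, −0.27 without RST mouse 4 and −0.21 without control mice 1 and 2. The medians of all tested probe sets in these settings were −0.02, −0.10 and −0.13. Syvn1 (−1.36), Dnajb11 (−0.86) and Pdia3 (−0.82) had the smallest p. The count of 6 was 2 without control mouse 2, 10 without RST mouse 2 and 0 without control mice 1 and 2. Over all tested probe sets the unadjusted count also fell without control mouse 2 and without control mice 1 and 2, as given below.

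**Figure D4:**
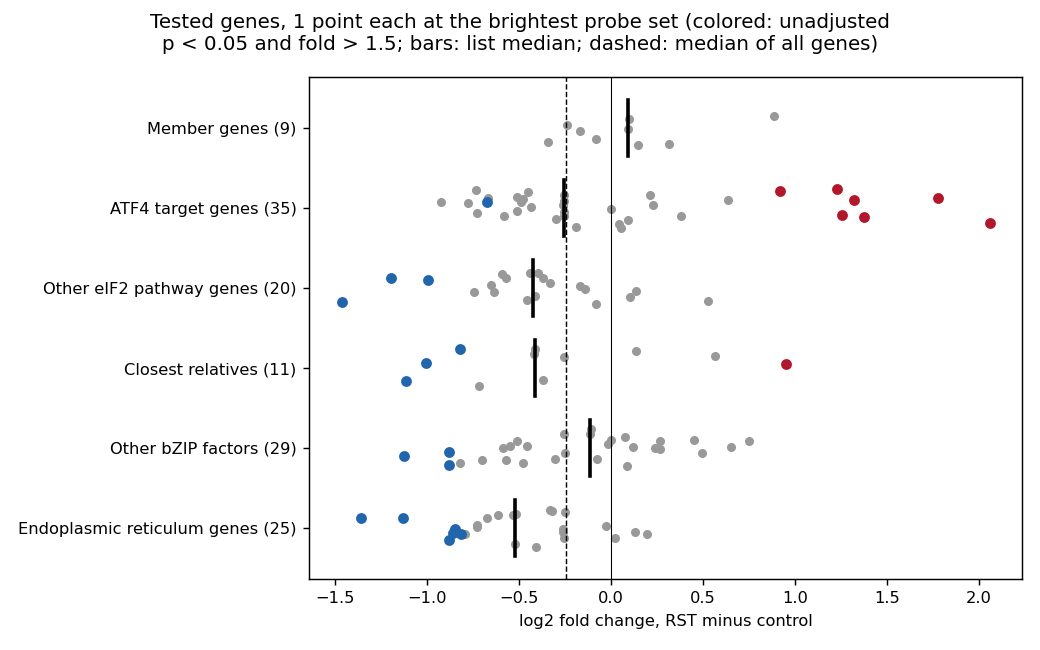
Log2 fold change (RST minus control, horizontal axis) of tested genes in 6 lists, 1 point per gene in each list that holds it. Points past the unadjusted threshold are red (higher in RST) or blue (lower in RST). Black bars mark list medians and a dashed line the median of all genes. None of the 9 member genes is colored, while 7 of the 35 ATF4 targets are red. The lists were chosen with earlier results of these data known.

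Blood is a mixture, and fewer cells of a type cannot be told apart from less RNA per cell in it. Marker scores (the mean log2 level of a list after centering each gene on its own mean and each array on its median gene) moved with the groups. The reticulocyte score was 0.24 to 0.59 in RST mice and −0.97 to −0.015 in control mice, and the B cell score (8 tested of 10 listed) was −0.71 to −0.15 in RST mice and −0.032 to 0.80 in control mice. The T cell score (8 of 10) was −0.58 to −0.0021 in RST mice and 0.0096 to 0.52 in control mice, and the platelet score (9 of 10) was 0.13 to 0.26 in RST mice and −0.53 to −0.065 in control mice. Without centering, T cell levels overlapped, at 6.02 to 7.21 in RST mice and 7.12 to 7.84 in control mice. Uncentered platelet levels also overlapped (9.48 to 10.09 and 9.50 to 9.86), and none of the 9 platelet genes passed the unadjusted threshold. B cell levels did not overlap (7.65 to 7.96 and 8.33 to 9.39). Control mice 1 and 2 lay farthest from the RST mice in reticulocyte score (−0.68 and −0.97, against −0.14 and −0.015 in control mice 3 and 4). The same held for the B cell score (0.75 and 0.80, against 0.21 and −0.032). Without control mice 1 and 2, 2 B cell, 1 T cell and 4 reticulocyte genes passed the unadjusted threshold. With all 8 mice 8, 5 and 6 did. The count over all tested probe sets fell as well. Neutrophil scores (8 of 10) overlapped, from −0.82 to 0.90 in RST mice and −0.20 to 0.59 in control mice, as did monocyte scores (8 of 10), from −0.68 to 0.11 in RST mice and −0.35 to 0.48 in control mice. RST mouse 2, which had the highest Atf5, Eif2ak1, Atf4 and Ppp1r15a values, also had the highest neutrophil score, at 0.90. The part of cell composition in the values of the 10 genes and of the other lists was not tested.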

How the data were processed

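The authors deposited log2 expression values for 45101 probe sets of 8 arrays, background-corrected, normalized across arrays and summarized per probe set (the submitters' processing notes name RMA, Partek and Affymetrix Expression Console 1.2.0.20, while the methods name GSRMA). Presence calls were not used here. Symbols were taken from GEO's platform annotation and renewed by Entrez identifier with the GRCm38.p6 table (34754 of 34958 probe sets with 1 gene; 932 with several were not named and 9211 were not listed). The 64 control probe sets were left out. Probe sets brighter than the array median in 2 or more of the 4 arrays of either group were tested with limma 3.58.1 in R 4.3.3 and Benjamini-Hochberg adjustment, and values below the filter come from a fit of all probe sets. For each gene the brightest probe set was used. Precision is limited by the 8 arrays. On simulated data for this comparison (25084 probe sets), 76.0% of 50 probe sets changed 2-fold passed the unadjusted threshold. Of 50 changed 1.5-fold 42.0% passed it, while 4.0% and 0% passed after adjustment. The threshold asks for an estimate above 1.5-fold, which by itself limits the share at 1.5-fold. The simulation drew each probe set independently, with no shift of a whole array. Members and lists were chosen with earlier results of these data known. Named are all 10 genes, the 3 genes of each list with the smallest p, and, after their values were seen, further targets, kinases and relatives given with values. Alternatives changed the filter, normalization, floor (25th percentile), array weights, prior, test, replicate block, probe set and each array in turn. Plots used matplotlib 3.10.9 (Python 3.11.15).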

Additional observations from a re-analysis of the deposited data

Results flagged for a closer look

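In 5 of 84 groups of 4 mice (42 probe sets, those of the 10 genes and of 22 other genes, RST and control), 1 mouse stood apart from the other 3 by more than Dixon's 95% critical value, where chance gives about 1 in 20 groups. Ddit3 (1417516_at) was at 4.87 in RST mouse 4, while the remaining RST mice lay at 6.21 to 6.31. Eif2ak1 (1453902_at, below the filter) was at 2.74 in RST mouse 1, against 2.14 to 2.17. Atf3 was at 5.20 in control mouse 2, against 3.84 to 3.97 in the other control mice, and Chac1, below the filter, was at 3.34 in the same mouse, against 2.53 to 2.67. Atf4 (1439258_at, below the filter) was at 2.70 in control mouse 4, against 2.32 to 2.35.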

How the results depend on the processing

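No member probe set passed the adjusted threshold in any setting. The unadjusted count was 0, but 1 after quantile normalization (Eif2ak1 1421900_at) and 1 with array weights (Atf5), and 0 to 2 when each mouse was left out (2 without RST mouse 4). Probe sets with no overlap numbered 0 to 3 when each mouse was left out (1, Trib3, without RST mouse 3). Over all probe sets the unadjusted count of 3337 was 5539 with array weights, 856 without control mice 1 and 2 (chosen after seeing the data) and 1731 to 4933 when each mouse was left out (1731 and 1751 without control mice 1 and 2 in turn), and 35 probe sets passed adjustment with a trended and robust prior, Slc7a5 among them (1.38, adjusted p = 0.044).
ATF4 targets past the threshold and lower numbered 1, but 3 with no filter, 0 after quantile normalization, 3 after control probe scaling, 4 with array weights, 5 with the replicate block, 0 without control mice 1 and 2, and 0 to 5 when each mouse was left out (5 without RST mouse 2, 3 without control mouse 4, 0 without control mouse 2). Endoplasmic reticulum genes numbered 10 with array weights, 10 with the replicate block, 0 without control mice 1 and 2 and 2 to 10 when each mouse was left out. Other eIF2 genes numbered 5 with array weights, 1 without control mice 1 and 2 and 2 to 5 when each mouse was left out (5 without control mouse 3, 2 without control mouse 2, control mouse 4 or RST mouse 4), and bZIP factors and relatives 1 and 0 without control mice 1 and 2. The cause was not tested.
Deviations of same-numbered mice correlated at −0.24, 0.42, 0.05 and 0.20, so the replicate numbers gave no sign of a pairing. Other pairs ran from −0.54 (RST mouse 2 with control mouse 3) to 0.52 (RST mouse 2 with control mouse 1). With the replicate block no member passed, while the counts of lower ATF4 targets and endoplasmic reticulum genes rose, as given above.
Signs of small differences changed for 14 of the 20 member probe sets in at least 1 of 19 settings. After quantile normalization Ddit3 (1417516_at) was at 0.090, Eif2ak1 (1430696_at) at 0.11, Atf4 (1439258_at) at −0.015 and Atf3 at 0.036. After control probe scaling Eif2ak1 (1421901_at) was at −0.036, Atf4 at −0.0082 (1438992_x_at) and −0.083 (1439258_at), Eif2ak4 (1443235_at) at −0.038, Ddit3 (1443897_at) at −0.12 and Ppp1r15a at −0.033. With the floor Trib3 (1426065_a_at) was at 0.16 and Chac1 at 0.048, and with array weights they were at 0.096 and 0.065 and Ddit3 (1443897_at) at −0.038. Without control mice 1 and 2, Ddit3 (1417516_at) was at 0.028, Eif2ak4 at 0.017 (1421389_a_at) and −0.0050 (1443235_at), Atf4 (1439258_at) at −0.049, Ppp1r15a at −0.14, Atf3 at 0.29 and Chac1 at 0.18. As means over all probe sets, Sesn2 was at 0.043 and Eif2ak1 at −0.041.
When each mouse was left out, values that changed sign ran from −0.36 to 0.25 for Atf3 (1449363_at), −0.10 to 0.26 for Eif2ak1 (1421901_at), −0.15 to 0.28 for Atf4 (1439258_at), −0.35 to 0.38 for Ddit3 (1443897_at), −0.081 to 0.35 for Ppp1r15a (1448325_at), −0.44 to 0.22 for Chac1 (1451382_at), −0.37 to 0.11 for Ddit3 (1417516_at), −0.21 to 0.24 for Trib3 (1426065_a_at), −0.54 to 0.0054 for Eif2ak1 (1436006_at), −0.33 to 0.069 for Sesn2 (1451599_at) and −0.049 to 0.29 for Atf4 (1438992_x_at).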

Other observations

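The endoplasmic reticulum stress element (either strand) was found in the promoters of 9 of 21 genes of the endoplasmic reticulum list and in 0.119% of all 32851 promoters, and in none of the 10 genes of the integrated stress response. Gadd45a, a stress-inducible gene named after its values were seen, had a log2 level of 11.81 ± 0.056 in RST mice and 11.24 ± 0.25 in control mice (SD, n = 4 each), with no overlap, and its log2 fold change of 0.57 was under the fold threshold. Dele1, which relays mitochondrial stress to HRI, was below the filter, at 2.63 to 3.15 in RST mice and 1.95 to 2.64 in control mice, with a log2 fold change of 0.47 (standard error 0.22).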
